A study of Mus musculus with 6 samples.

Results

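The enzymes that carry fatty acids into mitochondria and peroxisomes, shorten them and turn the product into ketone bodies were examined in primary mouse hepatocytes depleted of retinol saturase (RetSat). The 36 genes had been listed by name for these steps, with earlier results of these data known. Of them 34 had a probe set that names only that gene, out of 19938 genes measured. For Acsl3 the only probe set also names Utp14b, and no probe set naming Acsl1 was used here, so both are left out. The siRetSat cells were hepatocytes transfected with siRNA against RetSat, and the siControl cells were hepatocytes transfected with a control siRNA, with 3 transfections of each and 1 Affymetrix Mouse Gene 1.0 ST array per transfection. Both groups were wild type, were prepared, by the labels, from 1 C57BL/6J male of 10 weeks, were kept in medium with 25 mM glucose, received 1 nmol of siRNA overnight, and were harvested 48 h after the next medium change. The study's methods give another age range and another siRNA supplier than the labels. The p-values below thus reflect how far transfections of 1 cell preparation differ, not mice, and with no second siRNA among these samples, effects of RetSat loss and other effects of this siRNA cannot be told apart. Retsat itself lay at 4.62, 4.83 and 4.81 in siRetSat and at 6.80, 7.04 and 7.01 in siControl on the log2 scale, so 21.8% of the siControl signal remained (adjusted p = 0.000112 from limma).

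A fatty acid is burned only after it has been joined to coenzyme A by an acyl-CoA synthetase. Long chains then cross into the mitochondrion as carnitine esters: Cpt1a loads carnitine on the outer membrane and is the rate-controlling step in liver, a carrier moves the ester inward, and Cpt2 hands the chain back to coenzyme A. Inside, repeated rounds of dehydrogenation, hydration, dehydrogenation and thiolysis release acetyl-CoA, which liver mitochondria can condense into ketone bodies, while peroxisomes take very long and branched chains. In fasting liver many of these genes are induced together by the nuclear receptor PPARα.

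The cultures were checked against markers of the cell types they could hold, where rose and fell mean an adjusted p under 0.05 from limma across all genes, and dim means a mean below the 40th percentile of genes (4.33 on the log2 scale) in both groups. Over all genes 1.91% rose and 1.66% fell, the shares to set beside each count of markers. Of 9 hepatocyte markers 3 fell and none rose. Those that fell were Ahsg, Cps1 and Tat, at log2 fold changes of -0.52, -0.82 and -0.72. By sign, 6 of the 9 were negative and 3 positive. The summed linear signal of all 9 was 19267 to 19914 in siRetSat and 19482 to 20958 in siControl, and none was dim. Alb, the brightest of the 9, weighs most in these sums and was at 0.07. Of 12 macrophage markers 1 rose, with sums of 3319 to 3555 in siRetSat and 2463 to 2743 in siControl, and 8 of the 12 were dim in both groups. Cd68 and Cd14 made up most of these sums, and the other 10 markers summed to 137 to 155 in siRetSat and 130 to 146 in siControl. Of 12 stellate cell and fibroblast markers 2 fell (Acta2 and Tagln), with sums of 569 to 842 in siRetSat and 1473 to 1830 in siControl, and 4 were dim. The other 10 summed to 267 to 489 in siRetSat and 256 to 315 in siControl, and the median log2 fold change of all 12 was 0.10, with 7 of 12 positive. None of 8 endothelial markers passed an adjusted p of 0.05 from limma or by the methods' t-test, and 1 was dim. By either test 1 had an unadjusted p under 0.05, against 2892 of all 19938 genes from limma and 2807 by the methods' t-test. The endothelial sums were 253 to 303 in siRetSat and 241 to 279 in siControl. Of 5 bile duct markers 1 rose, with sums of 339 to 362 in siRetSat and 323 to 351 in siControl and 1 dim. Of 19 type I interferon response genes 16 rose and none fell, with sums of 9676 to 11225 in siRetSat and 4521 to 4680 in siControl. The part of these differences in the results was not tested, and fewer cells of a type and less RNA per cell cannot be told apart in such cultures.

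The 34 genes did not move as a block. At an adjusted p under 0.05 from limma, with siRetSat over siControl compared across all 19938 genes, 1 gene rose, Vnn1, against 1.91% of all genes that rose. Cpt1a, Crot and Hadh fell, 3 genes, against 1.66% of all genes. The remaining 30 did not pass. At the study's looser cutoffs (P below 0.05 with no adjustment, here taken from limma, and a log2 fold change of 0.32 or more in size), 2 genes were higher, Vnn1 and Etfb, against 4.47% of all genes, and 6 were lower, Cpt1a, Crot, Hadh, Acsl4, Eci1 and Fabp1, against 4.58%. With P from the methods' t-test in place of limma, the same cutoffs gave the same 2 higher genes, against 3.60% of all genes, and 5 lower, against 3.55%, all of those named except Fabp1. All 3 siRetSat arrays lay above all 3 siControl arrays for 6 genes (9.33% of all genes) and below them for 9 (10.1%), a separation whose exact permutation p is 0.1, the smallest that 3 against 3 allow. The median log2 fold change over the 34 genes was -0.03, against 0.00 over all genes, and 26 of the 34, or 76.5%, lay within 0.3 of no change, against 88.5% of all genes. None of the 34 was dim.

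**Figure D1:**
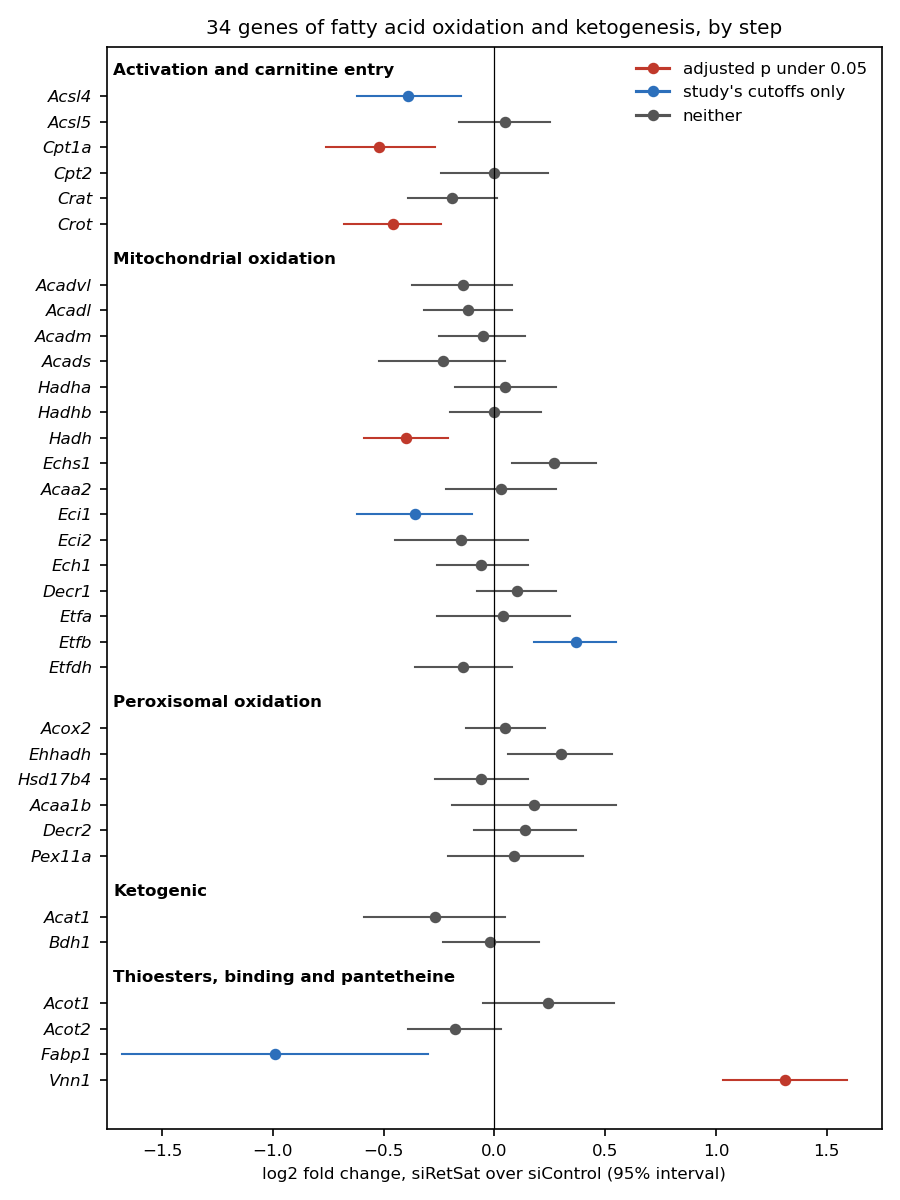
Each point is the log2 fold change of 1 gene, siRetSat over siControl, with its 95% interval from limma (3 arrays per group), in 5 groups of genes by step. Cpt1a at -0.52, Crot at -0.46, Hadh at -0.40 and Vnn1 at 1.31 (red) passed an adjusted p of 0.05. All 6 genes grouped as peroxisomal oxidation lay between -0.06 and 0.30, and the peroxisomal Crot is grouped with carnitine entry.

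Activation and carnitine entry, in which the peroxisomal Crot was counted, had the lowest median of the 4 oxidation and ketone steps. The difference between steps was not tested. Of the 6 measured genes of this entry step 2 fell, none rose and 4 did not pass, with a median log2 fold change of -0.29. Cpt1a lay at 8.48, 8.67 and 8.76 in siRetSat and at 9.02, 9.24 and 9.20 in siControl. The groups did not overlap. Its log2 fold change was -0.52, which is 69.9% of the siControl signal (95% interval -0.76 to -0.27, adjusted p = 0.0416 from limma). Crot, the peroxisomal transferase that loads medium chains on carnitine for export to mitochondria, was at 11.34, 11.43 and 11.48 in siRetSat and at 11.76, 11.99 and 11.89 in siControl. This too was a complete separation, with a log2 fold change of -0.46 (interval -0.68 to -0.24, adjusted p = 0.0393). Acsl4, the acyl-CoA synthetase that prefers arachidonate, was at 9.16, 9.34 and 9.36 in siRetSat and at 9.60, 9.81 and 9.61 in siControl. Its log2 fold change of -0.39 passed the study's cutoffs but not the adjusted threshold (adjusted p = 0.0943).

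Other genes of the same step gave no such difference. Cpt2 was at 7.54, 7.87 and 7.79 in siRetSat and at 7.71, 7.79 and 7.70 in siControl, so the siRetSat arrays spanned the siControl range. Its log2 fold change was 0.00, with an interval from -0.24 to 0.24 that does not reach the value of Cpt1a, although the difference between these genes was not itself tested. Acsl5, a long-chain acyl-CoA synthetase, had a log2 fold change of 0.05 (interval -0.16 to 0.25). Crat, which exchanges acetyl groups between coenzyme A and carnitine, was at -0.19 (interval -0.39 to 0.01), with all 3 siRetSat arrays below the siControl arrays.

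The calls for Cpt1a and Crot were close to the threshold. With any single array left out, each passed only without siControl 1, at adjusted p of 0.0499 and 0.0446, and missed without siRetSat 1, siRetSat 2, siRetSat 3, siControl 2 or siControl 3. The log2 fold changes themselves stayed between -0.58 and -0.44 for Cpt1a and between -0.52 and -0.41 for Crot over all 17 alternatives.

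Slc25a20 also belongs to this route, whereas a part of Cpt1c in it was not tested. Both were taken from a list of 48 further oxidation and ketone genes, of which 42 were measured. Slc25a20, the carrier that exchanges acylcarnitine for carnitine across the inner membrane, was at 8.89, 8.73 and 8.92 in siRetSat and at 9.50, 9.41 and 9.52 in siControl. It fell by 0.63 on the log2 scale (interval -0.84 to -0.42, adjusted p = 0.01), which was lost without siRetSat 2, siControl 2 or siControl 3, at adjusted p of 0.0635, 0.0501 and 0.0509. It also missed by the methods' t-test (adjusted p = 0.0558), without both arrays numbered 2 (adjusted p = 0.28) and without both arrays numbered 3 (adjusted p = 0.127). Cpt1c, the paralog of Cpt1a best known from brain, went the other way, with 7.26, 7.11 and 7.10 in siRetSat and 5.95, 6.02 and 5.92 in siControl. It rose by 1.19 (interval 0.99 to 1.40, adjusted p = 0.000651), passed in all 6 fits that left out a single array, and missed without both arrays numbered 2 (adjusted p = 0.083). Slc22a5, the carnitine uptake transporter, and Acsl6, a further acyl-CoA synthetase, are on the same list and did not pass, at -0.07 (adjusted p = 0.852) and 0.10 (adjusted p = 0.733).

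**Figure D2:**
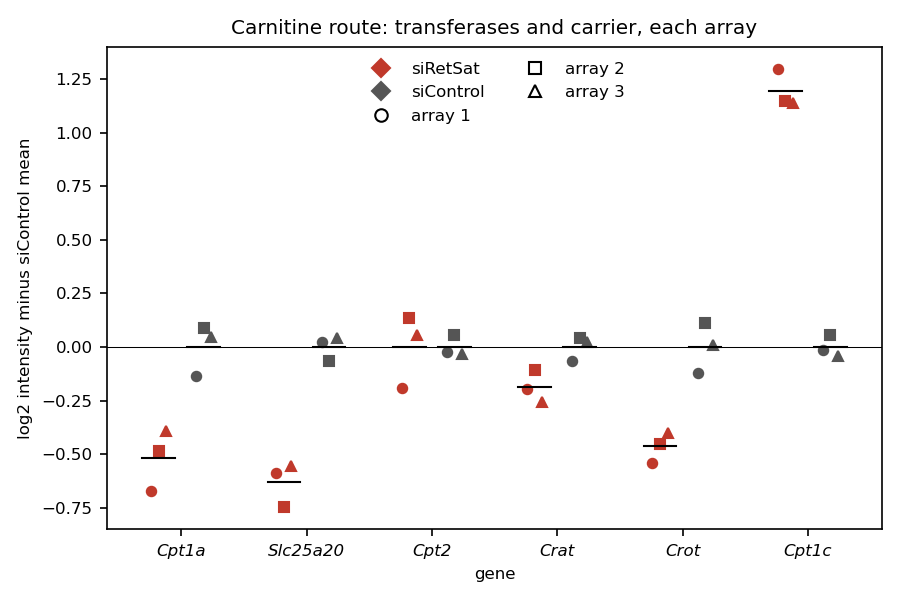
Each symbol is 1 array, as its log2 intensity minus the siControl mean of that gene, with siRetSat left of siControl and horizontal bars for group means (n = 3). Group means in siRetSat were lower by 0.52 for Cpt1a, 0.63 for Slc25a20 and 0.46 for Crot, level for Cpt2, and higher by 1.19 for Cpt1c.

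For the genes that passed either cutoff and had an entry, the 250 bases before the annotated start site were read from RefSeq (GRCm38.p6). Among the motifs sought was the direct repeat that PPARα and its partner RXR can bind. The motifs were chosen with earlier results of these data known, so a match is no test of a link to PPARα. Promoters of 30 of the 36 genes were in the table, 33 sequences in all, and Vnn1 was not among them. Each is given 5′ to 3′ on the strand of its gene, and capitals mark matches on either strand to the 3 motifs AGGNCANAGGNCA (direct repeat with 1 base between, DR1), AGGTCA (its single repeat unit) and CCAAT.
Cpt1a: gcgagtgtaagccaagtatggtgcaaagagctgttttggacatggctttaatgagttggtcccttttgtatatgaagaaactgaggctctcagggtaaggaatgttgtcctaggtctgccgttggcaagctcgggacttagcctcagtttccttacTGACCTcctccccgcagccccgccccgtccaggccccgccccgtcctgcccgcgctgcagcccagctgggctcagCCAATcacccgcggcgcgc
Crot: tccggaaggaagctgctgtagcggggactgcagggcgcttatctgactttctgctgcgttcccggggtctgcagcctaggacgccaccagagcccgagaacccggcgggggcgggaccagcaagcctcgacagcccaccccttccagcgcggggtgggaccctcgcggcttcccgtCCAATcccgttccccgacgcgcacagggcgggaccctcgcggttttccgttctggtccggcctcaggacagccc
Hadh: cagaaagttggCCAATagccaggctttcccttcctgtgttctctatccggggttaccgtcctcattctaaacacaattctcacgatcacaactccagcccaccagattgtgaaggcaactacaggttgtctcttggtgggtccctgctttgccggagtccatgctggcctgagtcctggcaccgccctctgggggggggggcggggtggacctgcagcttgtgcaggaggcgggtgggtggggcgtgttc
Acsl4: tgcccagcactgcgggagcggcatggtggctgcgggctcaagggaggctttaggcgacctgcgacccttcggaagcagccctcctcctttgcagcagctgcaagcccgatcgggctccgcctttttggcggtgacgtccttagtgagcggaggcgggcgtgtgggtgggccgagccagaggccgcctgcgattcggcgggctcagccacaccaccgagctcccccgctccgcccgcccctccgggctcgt
Eci1: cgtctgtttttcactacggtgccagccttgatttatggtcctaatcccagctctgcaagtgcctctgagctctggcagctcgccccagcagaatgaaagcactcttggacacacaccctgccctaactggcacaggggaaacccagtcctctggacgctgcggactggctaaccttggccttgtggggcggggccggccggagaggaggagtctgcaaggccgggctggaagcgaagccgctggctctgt
Etfb: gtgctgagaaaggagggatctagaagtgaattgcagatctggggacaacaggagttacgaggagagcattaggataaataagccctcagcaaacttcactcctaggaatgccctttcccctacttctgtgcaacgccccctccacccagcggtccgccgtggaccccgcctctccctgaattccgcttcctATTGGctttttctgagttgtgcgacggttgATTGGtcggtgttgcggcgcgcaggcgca
Fabp1: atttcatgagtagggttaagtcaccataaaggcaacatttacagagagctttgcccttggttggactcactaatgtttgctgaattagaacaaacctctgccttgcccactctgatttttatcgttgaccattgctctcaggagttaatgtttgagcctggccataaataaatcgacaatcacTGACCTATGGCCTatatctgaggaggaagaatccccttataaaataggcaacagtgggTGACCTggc

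These windows are chr19:3323051-3323300 for Cpt1a, chr5:8997147-8997396 for Crot, chr3:131272102-131272351 for Hadh, chrX:142390536-142390785 for Acsl4, chr17:24426433-24426682 for Eci1, chr7:43443822-43444071 for Etfb and chr6:71199629-71199878 for Fabp1, of which Crot, Hadh and Acsl4 are on the minus strand. Those of Acsl4 and Eci1 held no match to the 3 motifs. The DR1 letters were found in the window of Fabp1 alone among the 30 genes, from 67 to 55 bases before the start on the antisense strand, where they overlap a match to the repeat unit, and in 0.338% of all 32851 promoter windows. The repeat unit was found in 5 of the 33 windows, for Acadm, Acadvl, Cpt1a, Echs1 and Fabp1, and in 14.0% of all windows. The CCAAT letters were found in 15 of the 33 windows, those of Cpt1a, Crot, Hadh and Etfb among them, and in 33.8% of all windows. The palindrome CACGTG, an E-box, was found in none of the 33 windows and in 6.02% of all windows. Both the repeat unit and the CCAAT letters were found in genes that fell and in genes that did not. A match is a stretch of letters and not a measured binding site, and binding was not measured here.

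Mitochondrial oxidation had 16 measured genes, and 1 of them fell while 15 did not pass and none rose, with a median log2 fold change of -0.05. The 4 acyl-CoA dehydrogenases, which open each round at a chain length of their own, lay between -0.23 and -0.05. Acadm, the medium-chain enzyme, was at 10.37, 10.24 and 10.30 in siRetSat and at 10.37, 10.41 and 10.29 in siControl. The groups overlapped, and its log2 fold change was -0.05 (interval -0.25 to 0.14). The values of Acadvl, Acadl and Acads, for very long, long and short chains, were -0.14, -0.12 and -0.23. None of the 4 passed an unadjusted p of 0.05 from limma, nor by the methods' t-test.

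The steps that follow dehydrogenation held 1 gene that fell. Hadh, which oxidises medium- and short-chain hydroxyacyl-CoA, was at 9.80, 9.90 and 9.88 in siRetSat and at 10.27, 10.29 and 10.21 in siControl. The groups were far apart relative to their spread, with means of 9.86 ± 0.05 in siRetSat and 10.26 ± 0.04 in siControl (SD, n = 3 each). Its log2 fold change was -0.40, which is 76.0% of the siControl signal (interval -0.59 to -0.21, adjusted p = 0.041), and it missed the threshold in all 6 fits that left out a single array. Echs1, the short-chain enoyl-CoA hydratase that precedes Hadh in the round, was at 8.46, 8.52 and 8.57 in siRetSat and at 8.21, 8.27 and 8.27 in siControl. Its log2 fold change was 0.27, without overlap of the groups (interval 0.08 to 0.46, adjusted p = 0.154). Hadha and Hadhb, the subunits of the trifunctional protein that does these reactions on long chains, were at 0.05 (interval -0.18 to 0.28) and 0.00 (interval -0.20 to 0.21). A second probe set of Hadhb gave a difference of -0.02. Acaa2, the thiolase that closes the round, was at 0.03 (interval -0.22 to 0.28).

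Among the enzymes that deal with double bonds already in the chain, Eci1, the enoyl-CoA isomerase, was at 8.95, 8.66 and 8.64 in siRetSat and at 9.22, 9.07 and 9.04 in siControl. Its siRetSat 1 value was close to the siControl range, and the log2 fold change of -0.36 passed the study's cutoffs only (adjusted p = 0.158). Eci2, Ech1 and Decr1, which act on the same kind of chain, were at -0.15, -0.06 and 0.10. The electron transfer flavoprotein collects the electrons of the dehydrogenases. Its beta subunit Etfb was at 9.06, 9.05 and 8.95 in siRetSat and at 8.67, 8.64 and 8.65 in siControl. This was a log2 fold change of 0.37 without overlap, just short of the threshold (interval 0.18 to 0.55, adjusted p = 0.0535). The alpha subunit Etfa, which pairs with it, was at 0.04 (interval -0.26 to 0.34), and Etfdh, which passes the electrons to the respiratory chain, at -0.14 (interval -0.36 to 0.08).

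**Figure D3:**
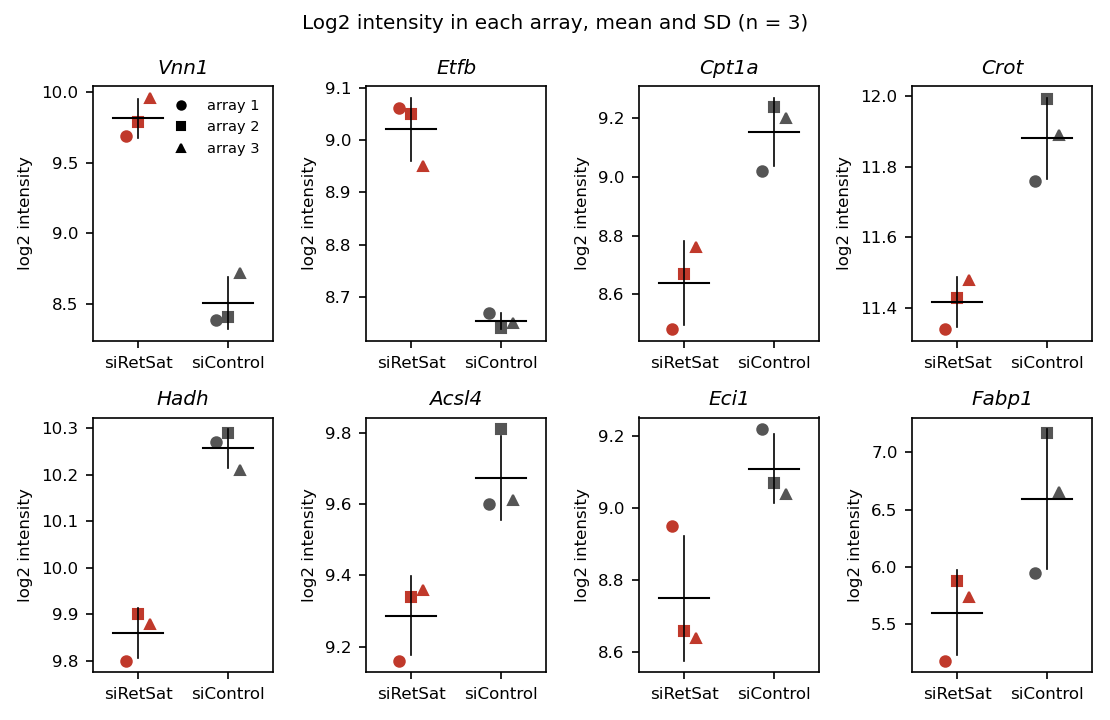
Each symbol is the log2 intensity of 1 array, with siRetSat left of siControl, horizontal bars for means and vertical lines for 1 SD to each side (n = 3), for the 8 genes that met the study's cutoffs by limma's P (Fabp1 did not pass by the methods' t-test). The vertical axes differ between panels and do not start at 0, and in every panel the groups do not overlap, with Fabp1 having the widest spread (SD 0.37 in siRetSat and 0.61 in siControl).

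None of the genes grouped as peroxisomal oxidation passed in the fit reported here, a group that does not include Crot, which fell. Of 6 measured, none rose or fell at an adjusted p under 0.05 from limma, 1 had an unadjusted p under 0.05 both from limma and by the methods' t-test, and the median log2 fold change was 0.12. That gene was Ehhadh, the bifunctional hydratase and dehydrogenase that is a classic PPARα target, at 6.46, 6.70 and 6.73 in siRetSat and at 6.29, 6.29 and 6.42 in siControl. All siRetSat arrays were above all siControl arrays, by a log2 fold change of 0.30 (interval 0.06 to 0.53, adjusted p = 0.211). Of the 17 alternatives only array weights brought it past the threshold, at 0.37 (adjusted p = 0.00841). Acox2, the oxidase for branched chains and bile acid precursors, was at 0.05. Hsd17b4, the other bifunctional enzyme, was at -0.06 and Decr2, the peroxisomal dienoyl-CoA reductase, at 0.14. Pex11a, a membrane protein of peroxisome division, was at 0.09, and Acaa1b, a thiolase whose probes may share transcripts with its close paralog Acaa1a, at 0.18. Acaa1a was at -0.07. The 95% intervals of the 6 genes together ran from -0.27 to 0.55.

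The ketogenic step was represented by 2 genes, neither of which passed by limma or by the methods' t-test, with or without adjustment. Acat1, which joins acetyl-CoA units to acetoacetyl-CoA, was at 7.33, 7.46 and 7.50 in siRetSat and at 7.39, 7.92 and 7.79 in siControl. The siControl 1 value fell within the siRetSat range, and the log2 fold change of -0.27 had an interval from -0.59 to 0.05. Bdh1, which reduces acetoacetate to 3-hydroxybutyrate, was at 6.50, 6.72 and 6.65 in siRetSat and at 6.57, 6.69 and 6.66 in siControl. These values interleave, and the log2 fold change was -0.02 (interval -0.23 to 0.20). From the further list, Bdh2, a cytosolic dehydrogenase named for the same reaction, rose by 0.42 (interval 0.23 to 0.61, adjusted p = 0.0346), a call lost whenever a single array was left out. Oxct1, which starts the use of ketone bodies, was at 7.48, 7.59 and 7.66 in siRetSat and at 7.83, 8.24 and 8.16 in siControl. Its log2 fold change was -0.50 (interval -0.78 to -0.22, adjusted p = 0.0744), which met the study's cutoffs with P from limma but not the adjusted threshold.

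The largest differences among the 34 genes lay outside the oxidation steps proper. Vnn1, the pantetheinase that splits pantetheine from coenzyme A breakdown into pantothenate and cysteamine, was at 9.69, 9.79 and 9.96 in siRetSat and at 8.39, 8.41 and 8.72 in siControl. The gap between the groups exceeded the range within either. It rose by 1.31 on the log2 scale, or 2.47-fold (interval 1.03 to 1.59, adjusted p = 0.0015 from limma), and passed in all 6 fits that left out a single array. It missed by the methods' t-test (adjusted p = 0.0519) and without both arrays numbered 2 (adjusted p = 0.118). Fabp1, the liver fatty acid binding protein, was at 5.18, 5.88 and 5.74 in siRetSat and at 5.95, 7.17 and 6.65 in siControl. The groups did not overlap, but siControl 1 lay only just above the highest siRetSat array. The log2 fold change of -0.99 had a wide interval, from -1.68 to -0.30 (adjusted p = 0.147), and was -1.31 without siControl 1 (adjusted p = 0.0416) and -0.70 without siControl 2 (adjusted p = 0.412).

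The paralogous thioesterases Acot1 and Acot2, which release free fatty acids from acyl-CoA in the cytosol and in mitochondria, had opposite signs. Acot1 was at 0.24 (interval -0.05 to 0.54) and Acot2 at -0.18 (interval -0.39 to 0.03), and neither passed. Their probes may share transcripts.

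**Figure D4:**
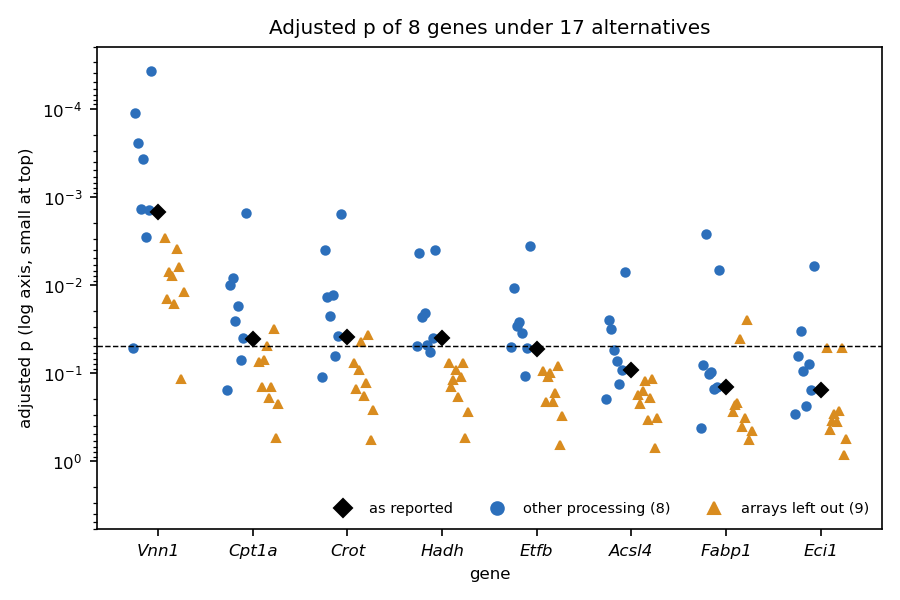
Each symbol is the adjusted p of 1 gene on a log axis with small values at the top, as reported (black), under 8 other ways of processing (blue) or with arrays left out (orange, 9 fits), and the dashed line is at 0.05. Vnn1 passed under 15 of 17 alternatives, Cpt1a and Crot under 8 each, Hadh under 6, Etfb under 5, Fabp1 under 4, Acsl4 under 3 and Eci1 under 2.

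Outside the 34 genes, the list of further oxidation and ketone genes had 2 that rose (Cpt1c and Bdh2), 1 that fell (Slc25a20) and 39 that did not pass, with a median log2 fold change of 0.03. Of its 42 measured genes 6 were dim in both groups. PPARα, its partners and other genes it is known to induce were 32 measured genes, and 1 of them fell, 31 did not pass and none rose, with a median of 0.05. Of these 32, 5 were dim in both groups, Cyp4a10, Cyp4a14 and Fgf21 among them, and at such levels a missing call says little. The gene that fell was Txnip (log2 fold change -1.01, adjusted p = 0.00584), which is better known as induced by glucose. Txnip missed by the methods' t-test (adjusted p = 0.0935) and without both arrays numbered 2 or both numbered 3 (adjusted p = 0.154 and 0.0824). The message for PPARα itself, Ppara, was at -0.01 and that for its partner Rxra at 0.06. Of other fasting-induced genes, Pdk4, which blocks pyruvate oxidation, was at 0.52 (adjusted p = 0.127), Angptl4 at -0.20 (adjusted p = 0.322) and Plin2 at -0.18 (adjusted p = 0.370). Cd36, a fatty acid transporter, was at 0.61 (adjusted p = 0.133). At the study's cutoffs with P from limma, 4 genes of the PPARα list were higher, Pdk4, Cd36, Ppard and Slc27a5. Lower were 2, Txnip and Slc27a2. Slc27a5 was at 0.45 (adjusted p = 0.102 from limma) and its paralog Slc27a2 at -0.39 (adjusted p = 0.189). The list of further oxidation and ketone genes likewise had 4 higher and 2 lower. Over all genes these shares were 4.47% and 4.58%. Both lists were chosen with earlier results of these data known.

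The members also differed between arrays of 1 group. In both groups the array numbered 1 tended to hold the lowest value of a member, in 16 of 34 genes for siRetSat 1 and in 21 of 34 for siControl 1, whereas over all genes these arrays were lowest for 34.9% and 33.0%. Without both arrays numbered 1, 1 member rose and 3 fell at an adjusted p under 0.05, and they were Vnn1, Cpt1a, Crot and Fabp1, against 2.19% of all genes that rose and 1.93% that fell in that fit.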

How the data were processed

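The authors deposited log2 intensities for 35556 probe sets on 6 arrays, and the submitters' processing notes name RMA (background correction, quantile normalization and probe summary) and Partek 6.6. The sources used here do not give filters or the annotation version. Values run from 1.46 to 13.7, and array medians from 4.29 to 4.50. For arrays, their number limits the precision. Each transfection used 100 ng of RNA.

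GEO's platform annotation supplied the gene names (21789 with 1 symbol, 1621 with several, 12146 with none, counted over probe sets). Symbols of 21698 were updated by Entrez identifier through RefSeq's GRCm38.p6 table. The brightest probe set of each gene was used, which gave 19938 genes. The difference siRetSat minus siControl was fitted per gene without covariates (lmFit, then eBayes, from limma 3.58.1 under R 4.3.3). P-values were adjusted by Benjamini-Hochberg across the 19938 genes. This step was tested on simulated data. The t-test that the study names was run as an alternative. Promoter windows and motif letters were read with Python 3.11.15 and pandas 2.3.3, and plots made with matplotlib 3.10.9. The members, lists and motifs were chosen with earlier results of these data known. Values per array are given for members past either cutoff and for Cpt2, Acadm, Acat1, Bdh1 and Ehhadh. Echs1 was added after its values were seen, and so were Oxct1, Pdk4, Angptl4, Plin2, Cd36, Slc22a5 and Acsl6 among other genes.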

Additional observations from a re-analysis of the deposited data

How the results depend on the processing

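Retsat and the direction of all named members that passed an adjusted p of 0.05 held under the 17 alternatives. The number of members called did not. By the methods' t-test 0 members were higher and 0 lower, against 1 and 3 by limma. With the replicate number as a replicate block 2 were higher and 6 lower. Array weights gave 4 and 7, and 4 higher at the study's cutoffs, and an intensity trend, the omission of dim genes and repeated quantile normalization each gave 2 higher. Median centring left 0 lower. With arrays left out, members higher ranged from 0 to 1 and members lower from 0 to 3 at the adjusted threshold, from 2 to 4 and from 4 to 7 at the study's cutoffs, and Retsat from -2.27 to -2.13. Over all genes, 710 calls became 1541 with the block, 2905 with array weights, 522 with median centring 196 by the methods' t-test and 15 without both arrays numbered 2. Median centring moved the median of all genes by -0.03, and repeated quantile normalization the median of mitochondrial oxidation genes to 0.01. The correlations of deviations between same-numbered arrays were 0.547, 0.0398 and 0.541. Between arrays of different number they ran from -0.567 to 0.247, so 0.547 and 0.541 lay above that range and 0.0398 within it. A shared effect of the replicate number was not tested. The fit reported here did not pair the samples by number, and the fit with the replicate block did.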

Other observations

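Several arms around fatty acid oxidation, grouped after the values were seen, moved little. The 4 genes that turn propionyl-CoA from odd chains into succinyl-CoA (Pcca, Pccb, Mcee and Mmut) lay between -0.09 and 0.21 on the log2 scale. Those of alpha oxidation and branched chain handling (Phyh, Hacl1, Amacr and Scp2) lay between -0.27 and 0.21, with Scp2 at -0.27 (adjusted p = 0.312 from limma) and Hacl1 at 0.21 (adjusted p = 0.336). The 7 acyl-CoA thioesterases outside the members lay between -0.14 and 0.16. None of these 15 genes passed an adjusted p of 0.05 from limma or by the methods' t-test. An unadjusted p under 0.05 was reached by 2 of the 15 from limma, against 2892 of all 19938 genes. By the methods' t-test it was reached by 4 of the 15, against 2807 of all 19938.

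The 2 Nudix hydrolases, which break down coenzyme A in peroxisomes, did not pass. Nudt7 was at 8.05, 7.86 and 7.82 in siRetSat and at 7.60, 7.78 and 7.49 in siControl, a log2 fold change of 0.29 (adjusted p = 0.268). Nudt19 was at 6.40, 6.80 and 6.80 in siRetSat and at 5.93, 6.25 and 6.54 in siControl, a log2 fold change of 0.43 with overlapping groups (adjusted p = 0.302). It met the study's cutoffs with P from limma, but not with P from the methods' t-test.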
